A study of Mus musculus with 4 samples.

Results

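The deposited cell annotation gave the name Epithelial to 347 of the 12648 non-malignant cells of a mouse sarcoma study, out of 31611 cells in all. All cells carrying that name were taken, and their identity was then read from marker genes. Of these cells, 286 carried endothelial markers without a mural or mast cell programme, 24 carried endothelial and mural markers together, 23 carried mural markers alone, 12 carried mast cell markers, and 2 carried too few markers of any of these. The data therefore go against the deposited name. Of the 347 cells, 295 had a UMI of all 4 endothelial markers. In the endothelial cells, Epcam averaged 0.15 CPM (the UMIs of a gene after each cell was brought to one total) over the 4 mice. Cdh1 averaged 0.48 CPM, and Krt18, the highest of the 5 measured epithelial genes, averaged 10.8 CPM. Cdh5 averaged 1001 CPM, but it is among the 4 genes that chose these cells, so its level is a description. The cells are called here by their markers.

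Hind limb sarcomas with conditional Trp53 alleles (Trp53flox/flox) on the 129/SvJae background were grown as allografts, and every group carried these alleles. One group of 2 mice received PBS as vehicle by the intraperitoneal route, and the other group of 2 mice received digoxin at 2 mg/kg. Digoxin was dissolved in DMSO before dilution in PBS, and the labels name no DMSO in the vehicle, so the drug and its solvent cannot be told apart. Doses were given every 24 h, tumors were taken after dose 4, and dissociated cells were captured for single-cell RNA sequencing of 3′ ends with unique molecular identifiers (UMIs, which tag single RNA molecules).

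Endothelial cells line blood and lymph vessels. In a growing vascular bed they take on several states: tip cells lead a sprout and respond to vascular endothelial growth factor, arterial cells depend on Notch signalling, and venous cells depend on the transcription factor Nr2f2 and recruit leukocytes. Mural cells (pericytes and smooth muscle cells) wrap the outside of the vessel, and mast cells are granule-filled immune cells that often sit beside vessels. Digoxin is a cardiac glycoside that blocks the sodium-potassium pump.

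The 286 endothelial cells comprised 69 cells from vehicle 1, 84 from vehicle 2, 68 from digoxin 1 and 65 from digoxin 2. Median depth was 21670, 18581.5, 20588 and 19360 UMIs per cell in the same order, and single cells ranged from 3398 to 159509 UMIs. The vehicle 2 library stood apart from the other 3. Xist, which is transcribed from an inactive X chromosome, had a UMI in 67 of 69, 67 of 68 and 62 of 65 endothelial cells of vehicle 1, digoxin 1 and digoxin 2, but in 1 of 84 cells of vehicle 2, where 75 cells had a UMI of a Y-linked gene. Values without vehicle 2 are therefore given beside several results below. Of 31498 distinct cell barcodes, 113 occurred in more than 1 library, and 2 cells named Epithelial carried such a barcode. Trp53 averaged 109, 151, 141 and 154 CPM in the endothelial cells of vehicle 1, vehicle 2, digoxin 1 and digoxin 2, against 6.56 to 7.71 CPM in the malignant cells.

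The 4 defining endothelial genes were present in nearly every endothelial cell. All 4 had a UMI in 271 of the 286 cells, whose summed endothelial marker UMIs had a median of 61 and a range of 4 to 587. Cdh5, the adhesion molecule of endothelial junctions, was at 962, 1069.8, 977 and 993 CPM in vehicle 1, vehicle 2, digoxin 1 and digoxin 2. Pecam1, another junctional adhesion molecule, was at 927, 920.0, 1021 and 1000.3 CPM. These genes differed little between the 4 mice. Kdr, the main receptor for vascular endothelial growth factor, was at 459, 446, 552 and 482 CPM. Emcn, a sialomucin of capillary and venous surfaces, was at 803, 909.6, 846 and 766 CPM. Since the cells were chosen by these genes, their presence is a description.

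Beyond the defining genes, the cells carried a broad endothelial programme and abundant basement membrane transcripts. Egfl7, a secreted endothelial factor, averaged 1277 CPM over the 4 mice and Plvap, which forms the diaphragms of fenestrae, averaged 1132 CPM. Col4a1 and Col4a2, the chains of type IV collagen, averaged 3660.4 and 1882 CPM. Sparc, a collagen-binding matrix protein, averaged 5594 CPM. Mast cell markers were close to 0 in these cells: Cpa3, Tpsb2 and Fcer1a were at 0 CPM in every mouse, and Hdc was the highest of the 8 at 11.1 CPM. Cells with at least 3 of these 8 markers had been set apart, so the low levels follow in part from the rule.

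**Figure D1:**
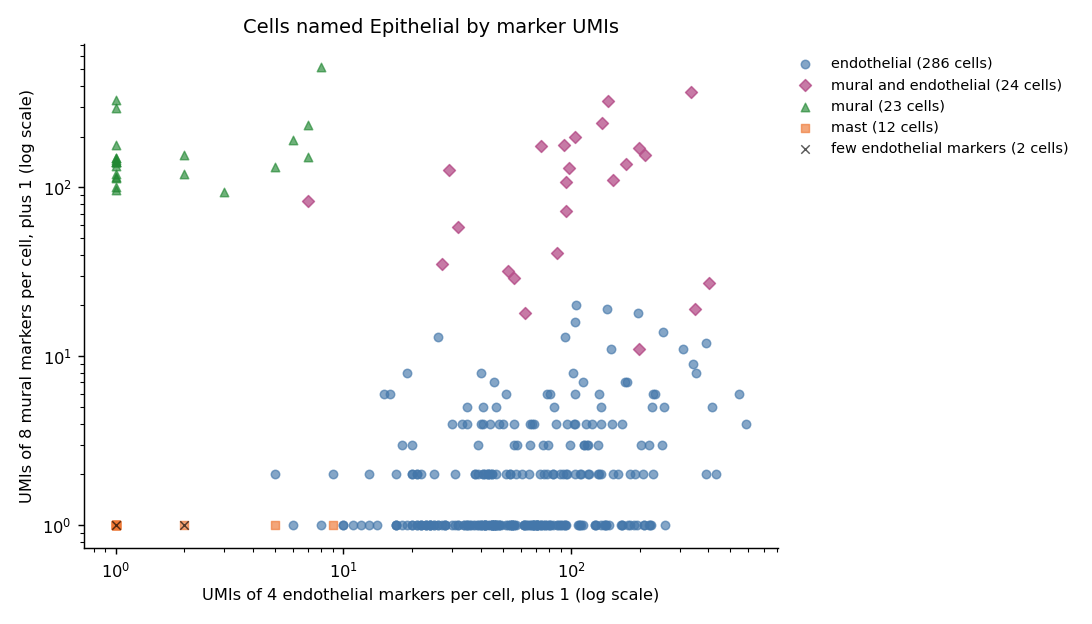
Each point is 1 of the 347 cells named Epithelial, placed by its UMIs of the 4 endothelial markers (horizontal, plus 1, log scale) and of the 8 mural markers (vertical, plus 1, log scale), with colour and shape for the class. The 286 endothelial cells lie low and to the right, the 23 mural cells lie high and to the left with at most 7 endothelial marker UMIs, and the 24 cells with both spread between them, from 6 to 402 endothelial and from 10 to 366 mural marker UMIs, so that some lie within the range of the endothelial or the mural cells.

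The mast cell group was sharply separated from the rest. Cells had a UMI of either 0 to 1 or 7 to 8 of the 8 mast cell markers, and the 12 mast cells held between 102 and 2071 mast marker UMIs, with a median of 579. No mast cell was found under this name in vehicle 1, 1 was found in vehicle 2, 5 in digoxin 1 and 6 in digoxin 2. As shares of non-malignant cells these are 0%, 0.0332%, 0.150% and 0.184%, and 0 of 3033 cells in vehicle 1 allows a share of up to 0.0989% (3 counts of the total; the exact 95% binomial upper limit is 0.122%). The digoxin mice were both above the vehicle mice, but 2 against 2 mice cannot give an exact permutation p under 0.33, which is the p found here (two-sided).

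Mast cell transcripts were at very high levels in these 12 cells, which is a description, since the cells were chosen by these genes. Cma1, a chymase of the granule, averaged 17543 CPM over the 3 mice that had such cells, and Cpa3, the mast cell carboxypeptidase, averaged 9093 CPM. Mast cell marker expression was not confined to cells named Epithelial: 19 of 10363 macrophages met the same rule of at least 3 of 8 markers, at 2, 4, 4 and 9 cells in vehicle 1, vehicle 2, digoxin 1 and digoxin 2. The number of mast cells per tumor can therefore not be read from this name alone.

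The 23 mural cells had 93 to 516 mural marker UMIs each, and 0 to 7 endothelial marker UMIs. Rgs5, a regulator of G protein signalling typical of pericytes, was at 6664, 7713, 7132 and 5758 CPM in the mural cells of vehicle 1, vehicle 2, digoxin 1 and digoxin 2. The share of such cells among non-malignant cells was 0.264%, 0.166%, 0.150% and 0.154% in the same order, lower in both digoxin mice (exact permutation p = 0.33, two-sided). The difference of -0.0633 percentage points was -0.0144 without vehicle 1 and -0.112 without vehicle 2.

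Mural cells were few, at 8, 5, 5 and 5 cells in vehicle 1, vehicle 2, digoxin 1 and digoxin 2. Of the 8 listed mural markers, 4 were lower and 0 were higher in both digoxin mice, and of 8 other mural genes, 4 were higher and 0 were lower. The 8 listed markers had also chosen these cells, so their levels are not independent of the choice. Among the 6116 genes with a mean of at least 20 CPM over the 4 mice in these cells, 17% were higher and 16.4% were lower in both digoxin mice. Acta2, smooth muscle actin, was at 862 and 1528 CPM in the vehicle mice and at 4311 and 4793 CPM in the digoxin mice. Tagln, an actin-binding protein of smooth muscle, was at 439.9 and 106 CPM against 1994 and 2767 CPM. Myh11, the smooth muscle myosin heavy chain, was at 52.6 and 85.0 CPM against 577 and 434 CPM. Cnn1, calponin, was the fourth such gene and was listed at 0 in both vehicle mice. It reached the mean of 20 CPM only through the digoxin mice, at 18.6 and 85.5 CPM. Des, the muscle filament protein desmin, overlapped between the groups. Higd1b, a pericyte marker, was at 1619 and 1441 CPM in the vehicle mice and at 642 and 598 CPM in the digoxin mice. Kcnj8, a channel subunit of pericytes, was at 1032 and 1174 CPM against 286 and 419 CPM. Abcc9 and Cox4i2 were also lower, while Rgs5, Notch3, Cspg4 and Vtn overlapped. With so few cells these are descriptions with no test, and the genes named were chosen after their values were seen. The share of contractile cells among so few mural cells and the level within each cell cannot be told apart.

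The 24 cells with both programmes had a median of 40790.5 UMIs, against 19670 for the endothelial cells and 12765 for the mural cells. Their mural marker UMIs ranged from 10 to 366 and their endothelial marker UMIs from 6 to 402. Scrublet, a caller of doublets (droplets with more than 1 cell), marked 1 of these 24 cells, and 12 of the 286 endothelial cells. Shares of the 24 cells among non-malignant cells were 0.0989% and 0.232% with vehicle against 0.150% and 0.276% with digoxin, which overlap (exact permutation p = 0.67, two-sided). The part of doublets in this class was not tested. These cells, the mural cells and the mast cells are left out of what follows, except where they are named or all cells named Epithelial are used.

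Endothelial cells made up 2.27% of the non-malignant cells in vehicle 1 (exact 95% binomial interval 1.77% to 2.87%), 2.79% in vehicle 2 (2.23% to 3.44%), 2.03% in digoxin 1 (1.58% to 2.57%) and 2.00% in digoxin 2 (1.54% to 2.54%). The vehicle mean was 2.53% ± 0.362 (SD, n = 2), and the digoxin mean was 2.01% ± 0.0267 (SD, n = 2). Both digoxin mice were below both vehicle mice, at the smallest p that the exact permutation test allows (0.33, two-sided). The difference of -0.516 percentage points was -0.772 without vehicle 1 and -0.260 without vehicle 2. The intervals of neighbouring mice overlapped and cover counting error only.

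Clustering split the 286 cells into 9 sub-clusters. A vessel state name was given where any listed marker of that state was among the 10 leading genes. The others are called by their leading genes. The largest, with 69 cells, was led by cell cycle genes such as Hist1h1b and Rrm2, and its 12 S phase genes summed to 1494 CPM against 311 CPM in the other cells. A sub-cluster of 59 venous-like cells was led by Slco2a1, a prostaglandin transporter, and Selp, the P-selectin that captures leukocytes. Selp was the only listed venous gene among its 10 leading genes, and 27.1% of its cells had a UMI of Selp. A sub-cluster of 56 tip-like cells was led by Gal, Kcnj8, Cxcr4, Pgf and Kcne3. Gal rested on few cells, since 8.93% of them had a UMI, and Kcnj8 also belongs to the mural list, with 72.9 CPM in the tip-like cells against 728 CPM in the mural cells. A sub-cluster of 28 cells was led mostly by interferon-induced genes, with Cxcl10 at 1441 CPM and Cxcl9 at 1546 CPM. Its largest ratio was that of Chga, at 305 CPM against 1.83 CPM in the others, but only 14.3% of its cells had a UMI of Chga. A sub-cluster of 23 arterial-like cells was led by Gja5, Car3, Stmn2 and Aqp7, and its leading genes also held Rgs5 of the mural list, at 215 CPM against 6817 CPM in the mural cells. Gja5 and Aqp7 each had a UMI in 30.4% of the arterial-like cells, Car3 in 17.4% and Stmn2 in 52.2%. A sub-cluster of 22 cells had no leading gene above 2.97 times its level in the others and stays unnamed. The last 3 held 11 cells with macrophage genes (Spp1, Arg1), 10 cells with fibroblast genes (Fbln1, Col3a1) and 8 lymphatic-like cells.

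Each of the 14 tip genes was higher in the tip-like sub-cluster than in the pooled other cells, although Angpt2, Pgf and Unc5b were higher still in the 8 lymphatic-like cells, Dll4 in the arterial-like cells and Plaur in the macrophage-gene cells. Their summed level was 4325 CPM there and 1914 CPM in the others. Esm1, a proteoglycan released by tip cells, was at 244 CPM in the tip-like cells and 70.8 CPM in the venous-like cells. Kcne3, a potassium channel subunit, was at 279 CPM against 52.7 CPM, and Apln, a peptide ligand of sprouting vessels, was at 347 CPM against 126 CPM. Tip-like cells thus stood out most in Kcne3 and least in Apln among these. Pgf, placental growth factor, was at 239 CPM in the tip-like cells and 0 CPM in the venous-like cells. In all endothelial cells, 39.5% had a UMI of Esm1, against 3.28% of T cells, where it is background, at median depths of 19670 and 7765 UMIs. After thinning each cell to 5000 UMIs, these shares were 23.9% and 2.58%.

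Venous genes were led by Lrg1, a glycoprotein of venules, at 1175 CPM in the venous-like cells and 381 CPM in the pooled other cells. Their summed level was 1976 CPM there and 931 CPM in the pooled other cells, where 8 of 10 genes were lower. Most of that difference lay in Lrg1. Broader lists were also higher in the venous-like cells, at 17 of 20 general endothelial genes and 9 of 11 basement membrane genes. The count of 8 of 10 therefore does not set venous genes apart. The venous sum was not highest in the venous-like cells, since it was 2530 CPM in the lymphatic-like cells, and it was 1625 CPM in the interferon-led cells. Vwf, von Willebrand factor, was at 190.1 CPM in the venous-like cells and at 224 CPM in the interferon-led cells. Nr2f2, the venous fate factor, was at 85.5 CPM in the venous-like cells but at 556 CPM in the lymphatic-like cells. Ackr1 and Sele, genes of activated venules, were at 11.7 CPM and 1.2 CPM, so the venous-like cells had little of either.

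Arterial genes were at their highest in a small set of cells, although some were also found in most endothelial cells. All 12 were higher in the arterial-like sub-cluster than in the pooled other cells, with a summed level of 4776 CPM against 849 CPM. Of all 286 endothelial cells, 93.0% had a UMI of Nrp1, a co-receptor for vascular endothelial growth factor, and 74.8% had one of Sox17, an arterial transcription factor, against 3.15% for Gja5. In T cells these shares were 15.2%, 0.345% and 0%, and after thinning to 5000 UMIs they were 71.4%, 40.6% and 1.45% in endothelial cells and 7.14%, 0.198% and 0% in T cells. Gja5 and Gja4, connexins of arterial junctions, were at 102 and 572 CPM there, while Gja4 was at 90.3 CPM in the venous-like cells and Gja5 at 0.726 CPM. Hey1, a Notch target, was at 237 CPM in the arterial-like cells and 50.5 CPM in the venous-like cells. The arterial-like cells also held the capillary and lipid-handling programme, so their name covers only part of what set them apart. All 9 measured capillary genes were higher there than in the pooled other cells, with a summed level of 21111 CPM against 3944 CPM. Fabp4, a fatty acid binding protein, was at 14773 CPM in the arterial-like cells, and Cd36, a fatty acid receptor, was at 1705 CPM. Lpl, lipoprotein lipase, was at 213 CPM in the arterial-like cells and 1.55 CPM in the venous-like cells. Their median depth of 10223 UMIs was lower than that of the tip-like cells (19282.5).

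**Figure D2:**
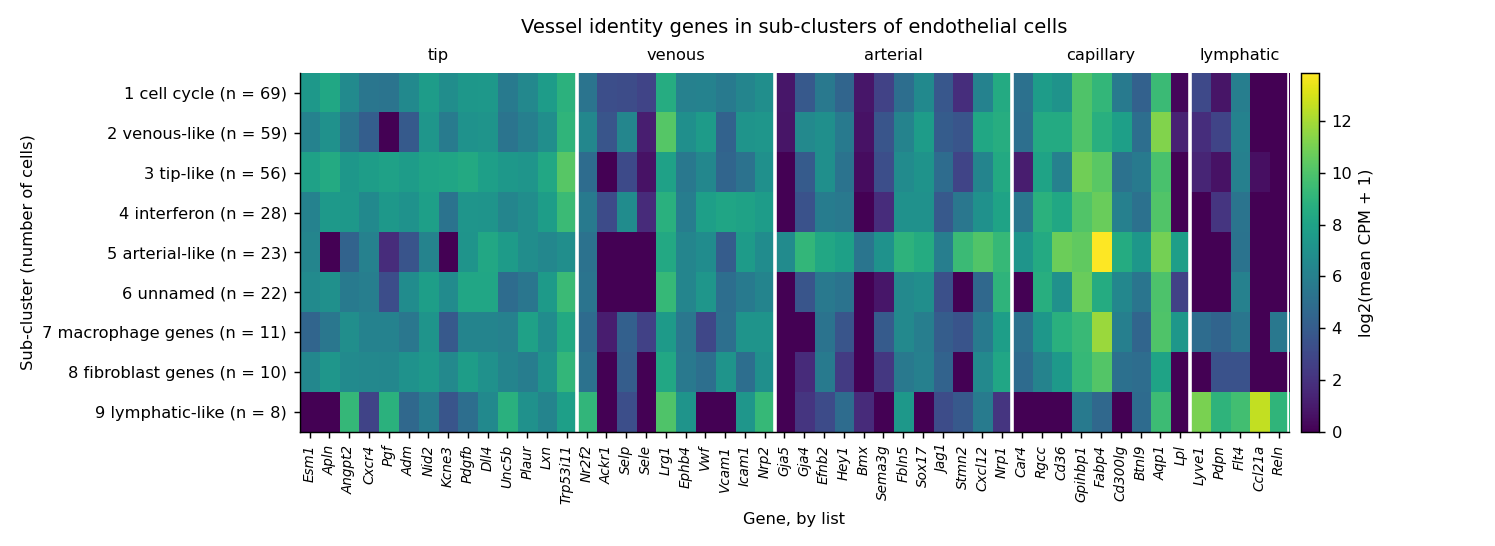
Mean level of each measured vessel identity gene (columns, by list) in the 9 sub-clusters of endothelial cells (rows, with their number of cells), as log2(mean CPM + 1) in colour. Arterial and capillary genes are bright in the 23 arterial-like cells, lymphatic genes in the 8 lymphatic-like cells, and tip genes in the 56 tip-like cells, while the venous list is more evenly spread.

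Lymphatic markers other than Flt4 were found in few of the 286 endothelial cells. Lyve1 had a UMI in 24 of them, Pdpn in 18, and Ccl21a and Reln in 8 each. Ccl21a, a chemokine that guides immune cells into lymph vessels, was at 6190.4 CPM in the lymphatic-like cells and Lyve1, a hyaluronan receptor, was at 2168 CPM. Flt4, the receptor for lymphangiogenic growth factors, was at 794 CPM there and at 60.05 CPM in the cell cycle sub-cluster. It was not confined to few cells, since 170 of the 286 endothelial cells (59.4%) had a UMI of Flt4. By mouse, the lymphatic-like cells numbered 0, 6, 1 and 1 in vehicle 1, vehicle 2, digoxin 1 and digoxin 2, so most came from the vehicle 2 library.

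Within single mice, tip and venous programmes ran in opposite directions. Spearman's rho between the summed tip and venous levels of a cell was -0.29 in vehicle 1, -0.37 in vehicle 2, -0.39 in digoxin 1 and -0.39 in digoxin 2. Arterial and capillary levels ran together, with rho between 0.25 and 0.46. These coefficients are descriptions over cells that share a library, and the arterial level also ran with depth, at a rho of -0.26 over the 286 cells.

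The tip-like share was set apart by 1 library. It was 13.0% of the endothelial cells in vehicle 1, 38.1% in vehicle 2, 14.7% in digoxin 1 and 7.69% in digoxin 2. Vehicle 2 supplied 32 of the 56 tip-like cells. The groups overlapped (exact permutation p = 0.67, two-sided), and the difference of -14.4 percentage points became -1.84 percentage points without vehicle 2 and -26.9 percentage points without vehicle 1. The name venous-like rests on Selp alone among the leading genes. Venous-like cells were 10.1% and 20.2% with vehicle and 25.0% (17 of 68 cells) and 27.7% with digoxin. Here the digoxin mice were both higher, at 11.2 percentage points more (exact permutation p = 0.33, two-sided). That difference was 6.11 percentage points without vehicle 1 and 16.2 percentage points without vehicle 2. Arterial-like cells were 13.0% and 2.38% with vehicle and 5.88% and 12.3% with digoxin, and the groups overlapped. Cells with at least 6 of 12 genes of mitosis were 36.2% and 19.0% with vehicle and 26.5% and 32.3% with digoxin, and they were deeper (median 33314 UMIs) than the rest (16229 UMIs).

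**Figure D3:**
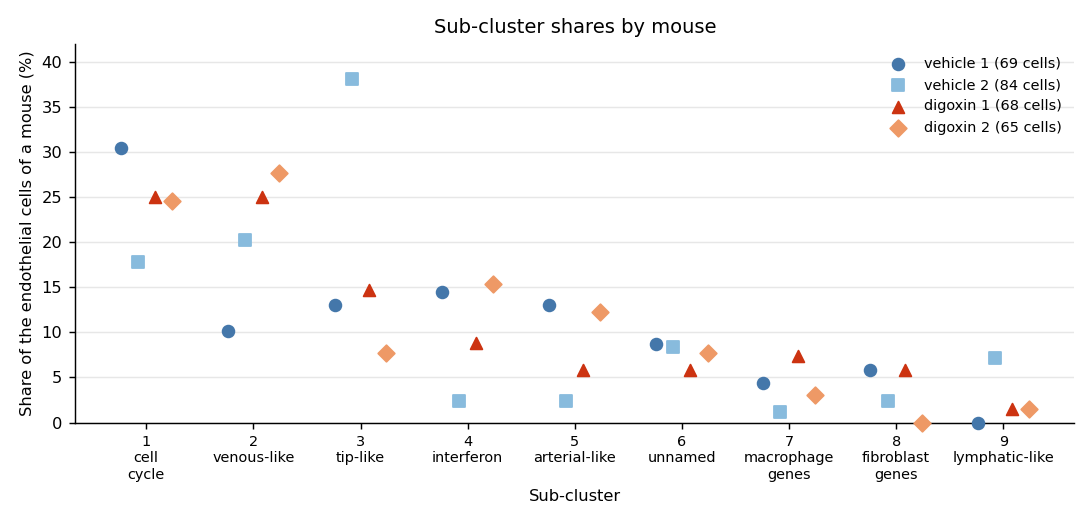
Share of each mouse's endothelial cells (percent) in each of the 9 sub-clusters, 1 point per mouse. Vehicle 2 lies far above the other 3 mice for tip-like cells at 38.1% and below them for interferon-led and arterial-like cells, and both digoxin mice lie above both vehicle mice for venous-like cells.

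The effect of digoxin on single genes was tested with limma over the 4 mice, on log2(mean CPM + 1). Of 9748 genes, 0 passed an adjusted p of 0.05 (0%), while 410 had an unadjusted p under 0.05 (4.21%). On recovered UMIs, edgeR called 2 genes (0.0205%), limma-voom 2 and DESeq2 4 (0.041%), and without cells marked as doublets limma called 2 (0.0208%). Both digoxin mice lay above both vehicle mice for 17.6% of all genes and below them for 15.3%. With single libraries left out, limma called 180 genes without vehicle 1, 74 without vehicle 2, 0 without digoxin 1 and 3 without digoxin 2, in fits that have 1 residual degree of freedom. With all 347 cells named Epithelial in the test, limma called 48 of 10272 genes and edgeR 0, and 24 of the 48 were not among the genes tested in the endothelial cells. The median log2 difference over all genes was 0.02. All gene differences below are therefore not past the threshold of the limma test, and counts of genes whose groups did not overlap are to be read against these background shares. The lists below were chosen with earlier results of these data known.

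The filtered UMI tests called Cxcl2 and Cd14 with edgeR and with limma-voom, and DESeq2 also called Cxcl1 and Lyz2, the lysozyme of myeloid cells. Cxcl2, a chemokine that attracts neutrophils, was at 225, 93.5, 329.5 and 227 CPM in vehicle 1, vehicle 2, digoxin 1 and digoxin 2, a log2 difference of 0.91 ± 0.33 (SE); the adjusted p was 0.996 in limma and, for edgeR, 0.0226. The log2 difference of Cxcl2 was 1.73 in edgeR, 1.54 without vehicle 1 and 0.28 without vehicle 2. Cd14, a lipopolysaccharide co-receptor of myeloid cells, was at 86.3, 53.9, 169.9 and 145 CPM, a log2 difference of 1.19 ± 0.23 (SE); the adjusted p was 0.409 in limma and, for edgeR, 0.0329. Both differences changed with the treatment of cells that also carried macrophage genes. Such cells, with at least 5 of 8 macrophage markers, numbered 2, 3, 8 and 3 in the 4 mice, and without them the log2 differences were -0.29 for Cxcl2 and 0.12 for Cd14. Without the sub-clusters led by macrophage and fibroblast genes they were 0.69 and 1.00, and without cells marked as doublets they were 2.15 and 2.16, where Cd14 passed (limma adjusted p = 0.0489) and Cxcl2 did not (0.104). The settings thus gave different sizes and, for Cxcl2, different signs. In the 11 cells of the macrophage-gene sub-cluster Cxcl2 was at 4240.1 CPM, against 62.4 CPM in the venous-like cells. Pf4, a chemokine of platelets and macrophages, was at 21.4, 9.46, 148 and 49.0 CPM, and its log2 difference of 2.50 was 0.81 without the 16 cells with at least 5 of 8 macrophage markers and 0.96 without the sub-clusters led by macrophage and fibroblast genes.

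The macrophage markers themselves leaned upward with digoxin. Their summed level was 314.5 and 184 CPM with vehicle and 577 and 289 CPM with digoxin, so the groups overlapped. All 8 were tested, and 4 were higher in both digoxin mice and 0 were lower, beside 17.6% and 15.3% of all genes tested. The median log2 difference of the 8 was 0.74, at 1.40 without vehicle 1 and 0.24 without vehicle 2. The 8 fibroblast markers summed to 657 and 218 CPM with vehicle and 249 and 181 CPM with digoxin. The 8 mural markers summed to 85.3 and 97.3 CPM with vehicle and to 36.2 and 65.8 CPM with digoxin, so these groups did not overlap. Of them, 3 were tested, 1 was lower in both digoxin mice and 0 were higher. The highest of the 8 was Kcnj8, at a mean of 24.8 CPM, which is also a leading gene of the tip-like cells. Rgs5 is also a leading gene of the arterial-like cells. The mural sum is thus not specific to mural cells, and the part of sub-cluster shares in its difference was not tested. The part of such transcripts of other cell types in each of the other differences was not tested, except where values without the cells are given.

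Hspa1a and Hspa1b, which encode an inducible chaperone, were among the genes with the smallest p, and neither passed. Hspa1a was at 53.8, 64.2, 129.9 and 262 CPM in vehicle 1, vehicle 2, digoxin 1 and digoxin 2, with a log2 difference of 1.63 ± 0.28 (SE) at an adjusted p of 0.253 in limma. Hspa1b, its near-identical neighbour, was at 19.3, 19.1, 50.1 and 82.7 CPM, with a log2 difference of 1.69 ± 0.28 (SE) at an adjusted p of 0.253 in limma. Digoxin 2 was the highest mouse for both genes. Without the macrophage-marker cells the log2 differences were 1.64 and 1.75. Hspb1, a small heat shock protein, was at 311, 188, 392.5 and 595 CPM, a log2 difference of 1.00 (limma adjusted p = 0.762), at 0.63 without vehicle 2. With equal weight of the 4 largest sub-clusters it was the 1 gene called of 9748 (0.0103%), at a log2 difference of 1.49 and a limma adjusted p of 0.0326. This setting was not planned, and it gives small sets of cells much weight. Vehicle 2 had only 2 interferon-led cells, and digoxin 2 had only 5 tip-like cells. By sub-cluster, Hspa1a was at 14.8, 29.4, 166 and 358 CPM in venous-like cells and at 6.67, 37.1, 119 and 211 CPM in tip-like cells. In the cell cycle sub-cluster it was at 48.04, 82.0, 0 and 152 CPM and in the interferon-led cells at 43.2, 37.2, 0 and 524 CPM. The arterial-like cells had the highest level, at 148, 0, 885 and 175 CPM, where digoxin 1 supplied 4 cells. Digoxin 1 was thus above the vehicle mice in venous-like, tip-like and arterial-like cells. It had no Hspa1a UMI in the cell cycle and interferon-led cells. Summed over all endothelial cells, Hspa1a had 125, 95, 138 and 491 UMIs, from 17, 16, 17 and 23 cells with a UMI. In these sums digoxin 1 was close to vehicle 1, and digoxin 2 held the most.

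Hspa1a and Hspa1b share their upstream sequence almost entirely, which is shown because both genes were higher in both digoxin mice. The genes are near-identical copies and the rule that split UMIs between them is not given in the sources used here, so their separate levels are uncertain. The 250 bases before each RefSeq start site (GRCm38.p6, minus strand) differ at 3 positions, at 98.8% identity. Capitals mark the fixed letters of GAANNTTC, the core of the heat shock factor motif, which is its own reverse complement and was searched on both strands at once. Each window holds 1 match, and 6.69% of 32851 RefSeq windows of this length hold at least 1. The Hspa1a window spans chr17:34972157-34972406 and the Hspa1b window spans chr17:34959239-34959488.
Hspa1a: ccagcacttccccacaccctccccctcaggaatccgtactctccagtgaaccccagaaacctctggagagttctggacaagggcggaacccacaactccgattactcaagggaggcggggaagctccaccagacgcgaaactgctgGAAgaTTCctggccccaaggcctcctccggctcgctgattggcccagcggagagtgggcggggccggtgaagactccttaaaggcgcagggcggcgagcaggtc
Hspa1b: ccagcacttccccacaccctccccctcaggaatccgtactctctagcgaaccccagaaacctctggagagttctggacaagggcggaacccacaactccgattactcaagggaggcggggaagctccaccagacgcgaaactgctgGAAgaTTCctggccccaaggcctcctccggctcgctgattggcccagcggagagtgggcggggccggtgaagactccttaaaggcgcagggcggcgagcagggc

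Secreted and junctional vessel genes were among those with the smallest p. Edn1, the vasoconstrictor peptide endothelin, was at 23.8, 31.8, 121.8 and 69.1 CPM in vehicle 1, vehicle 2, digoxin 1 and digoxin 2, a log2 difference of 1.70 ± 0.29 (SE) at an adjusted p of 0.253 in limma. Its digoxin 1 value drew on the interferon-led cells of that mouse, where Edn1 was at 818 CPM over 6 cells. Gja4 was at 46.4, 53.4, 93.5 and 104.7 CPM, a log2 difference of 0.98 ± 0.19 (SE) at an adjusted p of 0.465 in limma. On summed UMIs, where deep cells weigh more, the edgeR log2 difference of Gja4 was 0.18 and that of Edn1 was 0.85. In venous-like cells Gja4 was at 14.7 and 0 CPM with vehicle and at 90.1 and 205 CPM with digoxin. In the arterial-like cells, where it was highest, the groups overlapped, at 252 and 1648 CPM against 1188 and 356 CPM. In tip-like cells the digoxin mice were the lower ones, at 32.8 and 16.8 CPM with vehicle against 0.627 and 0 CPM.

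Cxcl1, another neutrophil-attracting chemokine, was at 99.4, 75.6, 190.0 and 187 CPM in the same order (log2 difference 1.11, limma adjusted p = 0.253), and at 0.73 without the macrophage-marker cells. It was called by DESeq2 (adjusted p = 0.00782) and by limma without cells marked as doublets (adjusted p = 0.0489). Lyz2 was at 193, 281, 499 and 283 CPM (log2 difference 0.69), with an adjusted p of 0.996 in limma and 0.00037 in DESeq2. Without the macrophage-marker cells Lyz2 was at 54.4, 68.2, 78.7 and 112 CPM, so most of its level lay in those cells. Its log2 difference was 0.62 without them, 0.42 without vehicle 1 and 1.94 without cells marked as doublets. Mt2, a metal-binding metallothionein, was at 44.8, 41.0, 104.7 and 101.5 CPM, a log2 difference of 1.25 ± 0.19 (SE) at an adjusted p of 0.253 in limma. Without the sub-clusters with macrophage and fibroblast genes Mt2 was at 42.5, 35.1, 46.8 and 98.0 CPM, a log2 difference of 0.80, and in the 4 fibroblast-gene cells of digoxin 1 it was at 1023 CPM. The digoxin 1 value then lay near the vehicle values. Atp13a3, a polyamine transporter, was at 34.6, 33.9, 64.8 and 96.7 CPM (log2 difference 1.19, limma adjusted p = 0.477). Its log2 difference was 0.66 in edgeR on summed UMIs and 0.74 with equal weight of the 4 largest sub-clusters. Scgb3a1, a secretoglobin, was at 3.65, 0, 17.1 and 32.6 CPM, from 9, 0, 32 and 38 UMIs. It reached the minimum level for naming, 20 CPM in either group, only through its digoxin mean of 24.9 CPM. Hspa1b and Pf4 likewise reached it only through the digoxin group, and Gabbr1 and Itm2a only through the vehicle group.

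Of the 12 genes with the smallest p at this level and with no overlap between the groups, 2 were lower with digoxin. Gabbr1, a subunit of a receptor for the transmitter GABA, was at 27.6, 30.5, 10.1 and 8.62 CPM, a log2 difference of -1.54 ± 0.33 (SE) at an adjusted p of 0.594 in limma. Itm2a, a membrane protein, was at 73.9, 44.7, 14.998 and 21.0 CPM, a log2 difference of -1.64 ± 0.31 (SE) at an adjusted p of 0.409 in limma. The Itm2a difference was -0.55 without the sub-clusters with macrophage and fibroblast genes, and 0.19 when the 4 largest sub-clusters had equal weight. The Gabbr1 difference was -1.51 and -1.32 under those settings, and -0.93 in edgeR on summed UMIs.

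**Figure D4:**
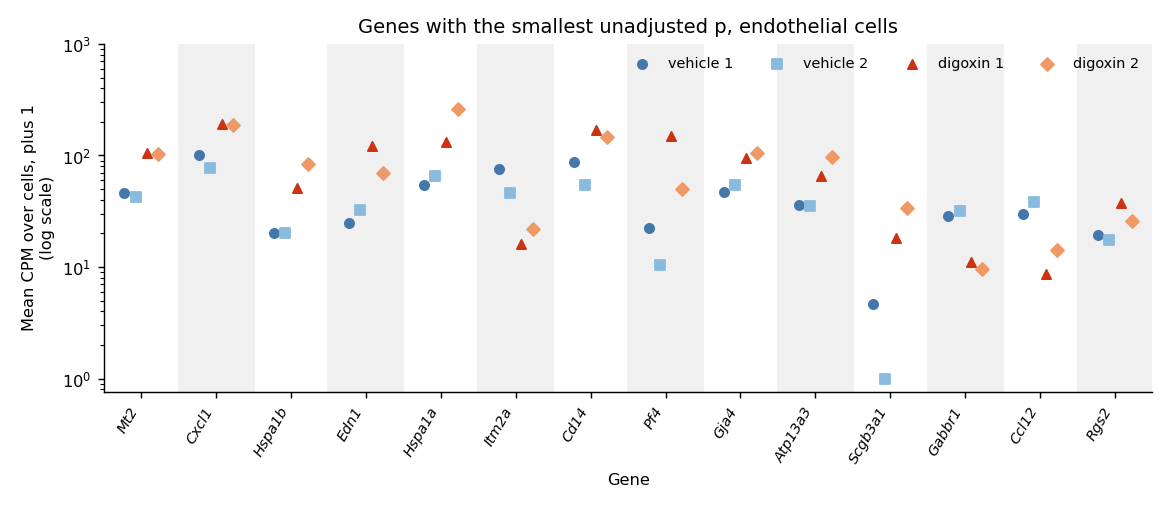
Mean CPM over the endothelial cells of each mouse (plus 1, log scale) for 14 genes. Of these, 12 had the smallest p in the digoxin test among genes with no overlap and at least 20 CPM in either group. The 5 with the smallest p in the test against other cells are also shown, and some belong to both sets. The 12 were chosen for groups that do not overlap, so their separation follows from the choice. The 2 digoxin mice lie above both vehicle mice for most, and below them for Itm2a, Gabbr1 and Ccl12, and no gene passed the limma threshold.

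Tip genes had a median below that of all genes, within a wide spread between the vehicle mice. Of 14 genes, 0 passed the test. In both digoxin mice 6 were lower and 1 was higher, beside 15.3% and 17.6% of all genes tested. The median log2 difference of the 14 was -0.36, against 0.02 over all genes. That median was -0.54 without vehicle 1 and -0.17 without vehicle 2, and -0.21 with equal weight of the 4 largest sub-clusters. Adm, the vasodilator peptide adrenomedullin, was at 102.6, 136.6, 74.4 and 50.8 CPM (log2 difference -0.93 ± 0.23, SE). Trp53i11 was at 540.4, 976, 463 and 457 CPM (log2 difference -0.66). The vehicle 2 value was the highest of both genes, and vehicle 1 was near the digoxin mice for Trp53i11. Unc5b, a guidance receptor, was at 80.8, 142, 70.9 and 72.5 CPM, and Lxn at 177, 239, 166 and 146 CPM. Nid2 and Pdgfb were also lower in both digoxin mice, with log2 differences of -0.14 and -0.25, respectively. Esm1 was the 1 tip gene that was higher, at 97.0, 113, 144 and 157 CPM (log2 difference 0.52 ± 0.17, SE). Apln, Angpt2, Cxcr4, Pgf, Kcne3, Dll4 and Plaur overlapped between the groups, with Pgf at 85.2, 133, 99.0 and 36.5 CPM.

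The arterial list leaned the other way. Of 11 genes tested, 4 were higher in both digoxin mice and 0 were lower, beside 17.6% and 15.3% of all genes tested. The median log2 difference of the 11 was 0.34, at 0.36 without vehicle 1, 0.26 without vehicle 2 and 0.17 on summed UMIs. The 4 higher genes were Gja4, Hey1, Efnb2 and Jag1. Hey1 was at 31.1, 42.1, 64.4 and 70.0 CPM (log2 difference 0.87 ± 0.23, SE; limma adjusted p = 0.795). Efnb2, the ephrin of arteries, was at 96.9, 77.7, 108 and 109.97 CPM, and Jag1, a Notch ligand, was at 18.1, 17.7, 21.9 and 24.1 CPM. Gja5, Sema3g, Fbln5, Sox17, Stmn2, Cxcl12 and Nrp1 overlapped, and Cxcl12, a chemokine of arterial walls, ranged from 38.0 CPM in vehicle 2 to 459 CPM in digoxin 2. Bmx was too low to be tested.

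**Figure D5:**
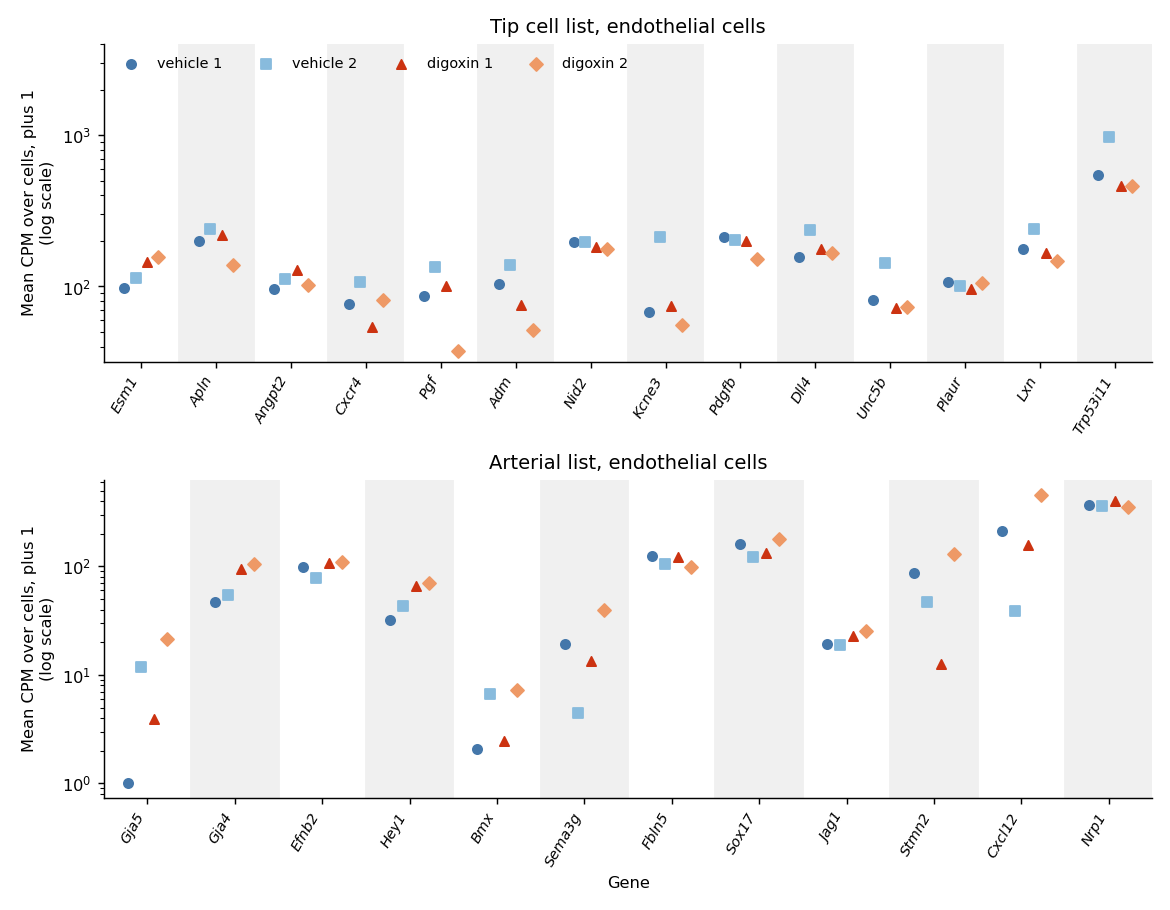
Mean CPM (plus 1, log scale) of the 14 tip genes (upper panel) and the 12 arterial genes (lower panel) over the endothelial cells of each mouse. Digoxin mice lie below vehicle mice for 6 tip genes and above them for Esm1, and lie above them for Gja4, Efnb2, Hey1 and Jag1, with vehicle 2 the highest mouse for most tip genes.

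The venous list showed no lean. Of 9 genes tested, 1 was higher (Ephb4, a receptor of veins, at 67.3, 66.5, 89.7 and 77.9 CPM) and 1 was lower (Nrp2, at 161, 153, 140.3 and 113 CPM). Over all genes tested, 17.6% were higher and 15.3% were lower. The median log2 difference of the venous list was 0.05, at 0.20 without vehicle 1 and -0.35 without vehicle 2. Nr2f2, Ackr1, Selp, Lrg1, Vwf, Vcam1 and Icam1 overlapped between the groups. Lrg1, the highest, was at 380.1, 649.9, 535 and 594 CPM, and Sele was too low to be tested. Capillary genes differed more between the vehicle mice than between the groups, with Fabp4 at 4969, 518, 1112 and 1804 CPM and a median over 9 genes of 1.34 without vehicle 1 and -0.79 without vehicle 2.

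Beside 17.6% and 15.3% of all genes tested, 4 of 10 Notch pathway genes were higher (Dll1, Jag1, Jag2 and Hey1) and 1 was lower in both digoxin mice. Their median log2 difference was 0.20, at 0.03 without vehicle 1, 0.32 without vehicle 2, 0.08 on summed UMIs and 0.02 with equal weight of the 4 largest sub-clusters. The lower one was Hes1, another Notch target, at 169, 216, 134 and 123 CPM (log2 difference -0.57 ± 0.17, SE), while Hey1 had the opposite sign. Both genes stood in the same list and in the same mice. Notch1, the receptor, was at 145, 177, 162 and 179.8 CPM and overlapped.

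Genes of bone morphogenetic protein signalling, which keeps vessels quiescent through Acvrl1 and its co-receptor endoglin, leaned upward. Of 10 tested, 7 were higher in both digoxin mice and 1 was lower, beside 17.6% and 15.3% of all genes tested. The median log2 difference of the 10 was 0.40, at 0.56 without vehicle 1 and 0.25 without vehicle 2. Eng, the gene of endoglin, was at 564, 451, 629 and 723 CPM (log2 difference 0.42 ± 0.14, SE; limma adjusted p = 0.996). Id1, a target of the pathway, was at 242, 157, 254 and 336 CPM, and Id3, another target, was at 338, 229.5, 341 and 434 CPM. For Id1 and Id3, vehicle 1 lay close to digoxin 1, and the gap was between vehicle 2 and digoxin 2. On summed UMIs the median was 0.20.

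Hypoxia and glycolysis genes leaned downward. Of 14 tested, 7 were lower in both digoxin mice and 1 was higher, beside 15.3% and 17.6% of all genes tested. The median log2 difference of the 14 was -0.35, at -0.47 without vehicle 1, -0.17 without vehicle 2 and -0.20 on summed UMIs. Angptl4, a secreted lipase inhibitor, was at 103.8, 121.3, 54.6 and 68.1 CPM (log2 difference -0.87 ± 0.20, SE; limma adjusted p = 0.596). Slc2a1, the glucose transporter, was at 72.6, 97.1, 48.9 and 57.9 CPM. Pgk1, a glycolytic enzyme, was at 311, 348, 237.5 and 269 CPM. Adm is a member of this list as well as of the tip list. Vegfa, the growth factor itself, was low in these cells, at 2.92, 9.85, 24.8 and 1.35 CPM. Its receptors had small differences, with a log2 difference of 0.19 for Kdr and 0.25 for Flt1.

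Immediate early genes leaned upward, with 6 of 12 higher in both digoxin mice and 0 lower, beside 17.6% and 15.3% of all genes tested. The median log2 difference of the 12 was 0.22, at 0.39 without vehicle 1 and 0.14 without vehicle 2. It was 0.14 on summed UMIs and 0.45 with equal weight of the 4 largest sub-clusters. Fosb, a subunit of the AP-1 factor, was at 409, 367, 534 and 547 CPM, and Klf4, a flow-responsive factor of endothelium, was at 262, 222, 301 and 411 CPM. Egr1, at 723, 257, 410.4 and 544 CPM, overlapped.

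Interferon and antigen presentation genes followed single mice rather than groups. Cxcl9 was at 617, 16.9, 195 and 145 CPM in vehicle 1, vehicle 2, digoxin 1 and digoxin 2, and B2m, the light chain of class I molecules, was at 1839, 929.9, 1826 and 1461 CPM. Vehicle 2 was the lowest mouse for both. The median log2 difference of the 13 interferon genes was 0.20, at 0.72 without vehicle 1 and -0.40 without vehicle 2, so the sign turned with the vehicle mouse that was kept. Of these genes 1 was higher and 3 were lower in both digoxin mice, beside 17.6% and 15.3% of all genes tested. All 10 class I genes overlapped between the groups.

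The digoxin effect in endothelial cells was then set against that in the non-malignant cells not named Epithelial, as an interaction in limma with the mouse as a block. Of 9612 genes, 0 passed (0%), and 407 had an unadjusted p under 0.05. Ccl12 had the smallest p and Hspa1a the next among those named (Hspa1a interaction log2 difference 1.56 ± 0.26, SE; limma adjusted p = 0.394), and in the other cells Hspa1a was at 113, 198, 140.5 and 176 CPM, where the groups overlapped. Ccl12, a monocyte-attracting chemokine, was at 29.1, 37.3, 7.66 and 13.3 CPM in endothelial cells and between 481 and 829 CPM in the other cells. Without the macrophage-marker cells Ccl12 was at 10.7, 4.89, 4.17 and 7.05 CPM in endothelial cells, where the groups overlapped, and the 1 macrophage-gene cell of vehicle 2 held 2736 CPM. Rgs2, a regulator of G protein signalling, was at 18.3, 16.6, 36.3 and 24.8 CPM in endothelial cells and at 187, 211, 182.5 and 134 CPM in the other cells, with an interaction log2 difference of 1.09 (limma adjusted p = 0.683). Without the macrophage-marker cells Rgs2 was at 18.3, 15.1, 24.8 and 21.2 CPM in endothelial cells, and the log2 difference there was 0.44 in place of 0.75. Both genes reached the mean of 20 CPM for naming only through their higher group. For Ccl12 this was vehicle (mean 33.2 CPM against 10.5 CPM), and for Rgs2 it was digoxin (30.5 CPM against 17.5 CPM). Edn1 and Gja4 were near 0 in the other cells, at up to 1.78 and 0.312 CPM.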

How the data were processed

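The authors deposited expression values as the natural log of 1 plus UMIs per 10000 UMIs of a cell, and the deposited UMI count per cell returned whole UMIs within 0.01 for 100% of values. Per the submitters' processing notes, Cell Ranger 3.0.2, Seurat 3.0.2 and mm10 were used; the rule for malignant cells is not given in the sources used here. Classes required at least 2 of 4 endothelial, 3 of 8 mast or 4 of 8 mural markers with a UMI; cells with mast markers were set apart first. UMIs were scaled to CPM per cell and averaged per mouse, and log2(mean CPM + 1) was tested with limma 3.58.1 (Benjamini-Hochberg threshold 0.05) over genes kept by edgeR 4.0.16 filterByExpr. Alternatives were edgeR, limma-voom and DESeq2 1.42.0 on recovered UMIs, other filters, pseudocounts and cell sets, and leaving out each mouse. Clusters came from scanpy 1.11.5 (Leiden resolution 0.8, 15 principal components of 1500 variable genes, 15 neighbours); names are rebuilt and may differ from the study's. Scrublet marked 1440 of 31611 cells and none was removed in the main test. The genes named are all tip, venous and arterial genes, leading genes of the other lists and sub-clusters, the 12 smallest p of the digoxin test with a mean of at least 20 CPM in either group (which the higher group alone can meet) and no overlap, and the 5 smallest p of the interaction with a mean of at least 20 CPM over the 4 mice. Genes called only under an alternative were named after their values were seen. The members and lists were chosen with earlier results of these data known. The tests were tested on simulated data. No label says that mice were handled separately, so p-values measure the spread between these 4 libraries. One part of the genotype label is not reported here. Columns of no sample numbered 0.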

Additional observations from a re-analysis of the deposited data

Results flagged for a closer look

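Rgs2 had differences of opposite sign in endothelial cells and in the other non-malignant cells. Both digoxin mice were above both vehicle mice in endothelial cells and below them in the other cells, and the difference of the effects was 1.09 on the log2 scale. It did not pass the interaction test in limma (adjusted p = 0.683). In endothelial cells the log2 difference of 0.75 was 0.44 without cells with macrophage markers. Rgs2 reached the mean of 20 CPM for naming only through its digoxin mean of 30.5 CPM, since its vehicle mean was 17.5 CPM.

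Vessel and mast cell genes were also present in cells with other deposited names. In the table of malignant cells, 26 of 18963 cells had a UMI of all 4 endothelial markers, at 2, 12, 5 and 7 cells in vehicle 1, vehicle 2, digoxin 1 and digoxin 2. In the same table, 36 cells had at least 4 of 8 mural markers, at 9, 14, 5 and 8 cells. Among the macrophages, 19 of 10363 cells had at least 3 of 8 mast cell markers, as did 9 cells of the malignant table, 1 fibroblast and 1 cell named Unknown. No other non-malignant type had a cell with all 4 endothelial markers or with the mural markers.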

How the results depend on the processing

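Mice limit every comparison: there were 2 per group, and the 2 vehicle mice differed in host sex genes. The count of genes called in endothelial cells, 0 with limma, was 2 with edgeR, 2 with edgeR and DESeq2 size factors, 2 with limma-voom, 2 on CPM of summed UMIs, 4 with DESeq2, 2 without cells marked as doublets, 1 (Hspb1) with equal weight of sub-clusters 1 to 4, 48 with all cells named Epithelial and 151 with edgeR and no filter. Of those 151, 116 were among the genes that the filter kept, and the cause was not tested. Leaving out each mouse gave 0 to 180 calls, and 0 to 24 for the interaction. The correlation of deviations from the group mean between mice of the same replicate number was 0.01. With 2 mice per group both pairs must give the same value, so it cannot decide whether mice were paired. The fit with the replicate number as a block called 0 genes. Pseudocounts of 0.5 and 5 CPM, other marker cuts and removal of cells with macrophage markers also gave 0.

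The share of cells with mural and endothelial markers, 0.0473 percentage points higher with digoxin, was -0.162 with a mural cut of 2 markers, and ranged from -0.0193 to 0.114 with each mouse left out. With each mouse left out, the differences in share ranged from -5.63 to 6.95 percentage points for sub-cluster 1, from -2.39 to 9.72 for sub-cluster 4, from -3.95 to 6.71 for sub-cluster 5, from -4.09 to 1.79 for sub-cluster 8 and from -5.64 to 1.5 for sub-cluster 9. For endothelial, mural and mast shares and sub-clusters 2, 3, 6 and 7 the direction did not turn. At resolution 0.4 there were 4 sub-clusters and the largest held 37.1% of cells. Log2 differences reversed for Itm2a (0.19) and Ccl12 (0.10) with equal weight of sub-clusters 1 to 4, and for Cxcl2 (-0.29) without cells with macrophage markers. Shares at these cell numbers cannot resolve differences smaller than their counting intervals.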

Other observations

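Endothelial cells also expressed genes not yet described that bear on their contacts with blood cells and matrix. Cd34, a sialomucin of vessel surfaces, was at 869, 876, 843 and 760.4 CPM in vehicle 1, vehicle 2, digoxin 1 and digoxin 2, and F11r, a junctional adhesion molecule, was at 304, 281, 262 and 279 CPM. Vcam1, a venous-list gene which binds leukocyte integrins, was at 132 CPM in vehicle 1 and between 16.4 and 59.4 CPM in the other mice. Fxyd5, a regulator of the sodium-potassium pump that digoxin blocks, was at 483, 498, 513 and 557 CPM, and Atp1b3, a pump subunit, was at 270.3, 261, 262 and 288 CPM. Fxyd5 was slightly higher in both digoxin mice, as were 17.6% of all genes tested, and Atp1b3 overlapped between the groups. Atp1b1 was listed at 0 in every mouse, and the other subunits of the pump are not described here.

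The 8 lymphatic-like cells also expressed Nrp2, at 627 CPM, and Angpt2, at 588 CPM, both above the tip-like cells (121 CPM and 160 CPM).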
